A study of Mus musculus with 3 samples.

Results

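The mouse zinc finger genes whose symbols run from Zfp600 to Zfp999 were examined for MEIS2 peaks in the embryonic striatal primordium. They were chosen by symbol among protein-coding genes, which gave 171 of the 21883 protein-coding genes on chromosomes 1 to 19, X and Y of mm10. A member was called clustered when its gene body lay within 100 kb of another protein-coding Zfp gene, and isolated otherwise. By that distance 108 members were clustered and 63 were isolated. Neighbours with provisional names (Gm, Rik) were not counted, so an isolated member can still lie beside zinc finger genes with such names.

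MEIS2 belongs to the TALE homeodomain proteins, which bind DNA to regulate transcription. CUT&Tag maps such binding: a transposase is tethered to the protein through an antibody and cuts and tags the DNA beside it. All 3 libraries came from CD1 embryos on embryonic day 14.5 and from the lateral ganglionic eminence (LGE), which gives rise to striatal projection neurons. The labels give no genotype, and peak lists hold no expression, so the tissue was not checked against marker genes. Of these, 2 were made with a mouse polyclonal MEIS2 antibody and serve as replicates, and 1 was made without a primary antibody. The labels do not say whether the replicates came from separate embryos or litters, so the spread between them may be technical. Replicate 1, replicate 2 and the no-antibody library held 74259592, 79760948 and 72763762 tags, with redundant rates of 0.90, 0.92 and 0.91. The peak caller kept 7618406, 6559629 and 6337375 tags and gave 78060, 82093 and 9869 peaks on the chromosomes used. Replicate 1 peaks that overlapped a replicate 2 peak and no no-antibody peak were called reproducible, and there were 47809. Fold values given in pairs are the authors' fold enrichment at the peak in replicate 1 and then in replicate 2. Intervals given for shares are 95% Wilson intervals and cover counting error only. Genes of 1 cluster are related and share neighbours, so they are not independent, and no test between gene classes was made.

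Zfp symbols name genes for zinc finger proteins. Most of these have tandem Cys2-His2 fingers, each of which contacts a few bases of DNA, while some, such as Zfp703, do not. Many mouse genes with such finger arrays also encode a KRAB domain, which recruits the corepressor TRIM28 and, through it, the histone methyltransferase SETDB1 to silence transposable elements. Such genes have multiplied by tandem duplication into clusters, while others are single genes with conserved roles in development. Which members encode a KRAB domain was not analysed here.

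MEIS2 peaks lay at the ends of isolated members more often than at those of clustered members. A reproducible peak summit fell within 1 kb of a gene end in 38 of 63 isolated members (60.3%, 48.0 to 71.5) and in 45 of 108 clustered members (41.7%, 32.8 to 51.1). Over all members the count was 83 of 171 (48.5%, 41.2 to 56.0), and over all protein-coding genes the share was 52.4%, so the members as a whole lay near the background. The isolated share exceeded the clustered share by 18.7 percentage points (Newcombe interval 3.12 to 32.9, counting error only). In replicate 2 alone the shares were 65.1% and 48.1%, and in replicate 1 alone 65.1% and 56.5%, against 55.4% and 60.5% of all protein-coding genes. The difference between the classes was thus 16.9 points without replicate 1 and 8.60 points without replicate 2. The other Zfp genes, numbered outside this range, had 77 of 105 isolated genes (73.3%) and 47 of 118 clustered genes (39.8%) with such a peak. No-antibody peaks lay at an end of 1 member, Zfp706, and at 0.27% of protein-coding genes.

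**Figure D1:**
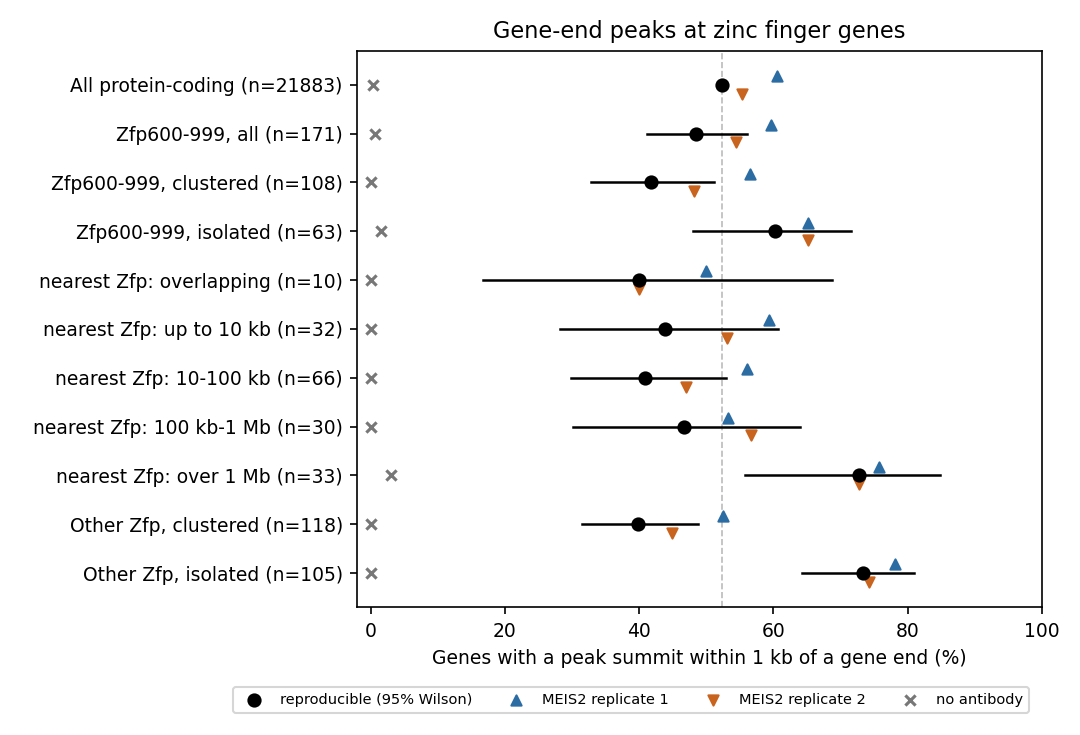
Share of genes with a peak summit within 1 kb of a gene end (x axis, percent) for each gene class (y axis, with the number of genes), as reproducible peaks (black, with 95% Wilson intervals), in each MEIS2 replicate alone and without antibody. The dashed line marks the 52.4% of all protein-coding genes, and members over 1 Mb from another Zfp gene lie furthest above it at 72.7% among the distance groups.

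The isolated class was itself uneven. Among members more than 1 Mb from the nearest Zfp gene, 24 of 33 had a gene-end peak (72.7%, 55.8 to 84.9). Among those 100 kb to 1 Mb away, 14 of 30 did (46.7%, 30.2 to 63.9), which is near the 27 of 66 (40.9%) at 10 to 100 kb, the 14 of 32 (43.8%) within 10 kb and the 4 of 10 (40%) that overlapped another Zfp gene. At the 100 kb limit, Zfp932 and Zfp605, 97762 bp apart and counted as clustered, had no gene-end peak in either replicate. Just outside it lie Zfp715 and Zfp936, 104413 bp apart, of which Zfp715 had a reproducible gene-end peak and Zfp936 did not.

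A list of 13 members named for their roles was chosen with earlier results of these data known. Of these, 10 had a reproducible gene-end peak, against 52.4% of protein-coding genes, and Zfp750, Zfp932 and Zfp708 did not. Zfp703, a transcriptional repressor of the NET family, had its peak over one end (chr8:26976755-26977693) with folds of 4.00 and 4.13 and pileups, the tags stacked at the summit, of 21 and 17. Its lower-of-replicates fold was near the bottom of the 83 peaks, which ran from 3.24 (Zfp651) to 16.1 (Zfp978). Zfp711, an X-linked gene whose human counterpart is linked to intellectual disability, had folds of 8.5 and 11.6 in a peak of 1272 bp (chrX:112600474-112601745). Zfp609, a nuclear regulator in cortical neuron migration, had folds of 9.76 and 8.60, and its paralog Zfp608 had 3.87 and 5.63. Zfp638, which acts in silencing of unintegrated retroviral DNA, had 11.3 and 5.10, a gap between replicates larger than for most members. Zfp618, a partner of the hydroxymethylcytosine reader UHRF2, had 8.23 and 7.65 in the stronger of 2 peaks, and Zfp661 had 8.57 and 7.21 at an end within 1 kb of an end of Mrps5. Zfp652 had 8.58 and 7.01, but at its 3′ end. Zfp750, a regulator of epidermal differentiation, had no gene-end peak in either replicate. Some of these calls ended under stricter settings: those of Zfp608, Zfp638 and Zfp809 with −log10 q of at least 5, and those of Zfp608, Zfp618 and Zfp711 with 50% reciprocal overlap of the replicates' peaks.

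The gene-end peaks of members were about as strong as those of other genes. Their median lower-of-replicates fold was 6.4 (6.38 in the 45 clustered and 6.48 in the 38 isolated members), and that of 11458 protein-coding genes with such a peak was 6.38. The highest isolated values were at Zfp641 (9.84 and 10.1), Zfp639 (13.1 and 9.48), Zfp704 (9 and 9.13), and Zfp966 and Zfp967, and the highest clustered ones at Zfp978 (18.5 and 16.1), Zfp963 (11.2 and 10.2), Zfp982 (9.59 and 12.2), Zfp787 (9.30 and 10.2) and Zfp968 (11.3 and 8.91). The Zfp787 peak lay at the 3′ end of the gene, with its summit 844 bp from that end. The Zfp978 peak, at chr4:147124745-147125231, stood apart from the rest in both replicates, with pileups of 54 and 33 against member medians of 18 and 11. The range of all protein-coding genes, 10th to 90th percentile, was 4.38 to 8.84. Peaks at clustered members were narrower, with a median length of 469 bp against 606 bp at isolated members and 613 bp over all protein-coding genes. Where the strand was known, the strongest peak lay at the 5′ end in 63 of 69 members (91.3%), against 92.9% of protein-coding genes. It also lay within 1 kb of an end of another protein-coding gene in 10 of 83 members (12%), against 22.3% of protein-coding genes, and in 4 clustered members that other gene was a Zfp gene.

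**Figure D2:**
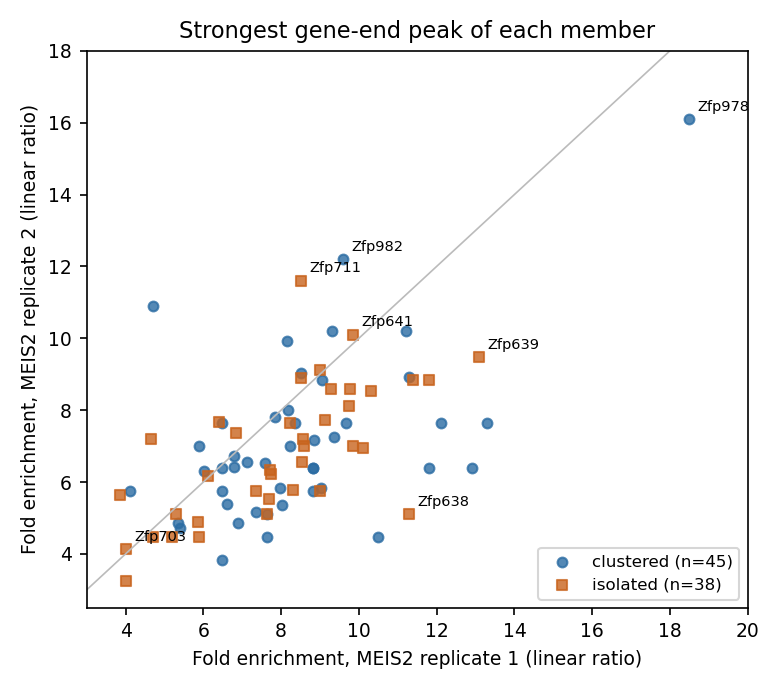
Fold enrichment of the strongest gene-end peak of each of 83 members in MEIS2 replicate 1 (x axis) and replicate 2 (y axis), both linear ratios, with clustered members as circles and isolated ones as squares and the line of equal values in grey. Zfp978 lies apart from the others at 18.5 and 16.1, and the 2 classes overlap over the rest of the range.

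Of the 88 members without a reproducible gene-end peak, 60 had none in either replicate, 18 had one in replicate 1 alone, 9 in replicate 2 alone and 1 in both at places that did not qualify. Replicate 1 alone accounted for 15 clustered and 3 isolated members, and replicate 2 alone for 6 and 3. No reproducible peak lay in the gene or within 1 kb in 35.1% of members, near the 32.8% of all protein-coding genes. By class these shares were 40.7% of clustered and 25.4% of isolated members. No peak of any library lay there in 23 clustered members, among them Zfp605, Zfp658, Zfp677 and Zfp738. The same held for 6 isolated ones, among them Zfp640, Zfp930, Zfp938 and Zfp945. The matching share of all protein-coding genes was not computed for this count. Zfp932, whose protein represses endogenous retroviruses, had no gene-end peak in either replicate. Zfp708, another repressor of retroviral elements, had none either, although replicate 1 alone had a peak near its annotated start, whereas Zfp809, which recognises the primer binding site of murine leukaemia virus, had one with folds of 10.5 and 4.46 and pileups of 18 and 6.

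Clusters ranged from chains in which no member had a gene-end peak to chains in which all did. Linking Zfp genes within 100 kb of each other gave 40 chains with at least 1 member. Every member had a gene-end peak in 11 of them and none did in 17. A chain with 1 member must fall in one of these groups, and only 8 chains held at least 4 members. Whether these counts differ from what the clustered share of 41.7% would give was not tested. The most members in a chain were 8, in one on chromosome 17 and one on chromosome 4. In the first (chr17:21383707-21994366), 3 of 8 had one, namely Zfp820, Zfp942 and Zfp943. The stronger Zfp820 peak (7.85 and 7.80) lay outside the gene, with its summit 924 bp from the 3′ end. A weaker one (4.70 and 5.74) had its summit 771 bp from the other end. Zfp942 and Zfp943 share a single peak (chr17:21962139-21962600, 8.82 and 6.38). Its summit lies inside Zfp942, 217 bp from the 5′ end of that gene and 273 bp from that of Zfp943. Zfp677 and Zfp948 there had no gene-end peak in either replicate, Zfp983 and Zfp995 had one in replicate 1 alone and Zfp760 in replicate 2 alone. In the chromosome 4 chain (chr4:147124882-147849126), Zfp978 and Zfp982 of 8 members had one, and Zfp991, Zfp988, Zfp985, Zfp979, Zfp984 and Zfp933 did not. In the chromosome 13 chain (chr13:67038594-67827000) only Zfp748 of 6 members had one (4.12 and 5.74), and Zfp712, Zfp708, Zfp759, Zfp953 and Zfp738 did not. In replicate 1 alone the counts of the chromosome 17 and 13 chains were 5 of 8 and 2 of 6, the latter with Zfp712 as well. A chain on chromosome 8, named here after its values were seen, was the reverse: Zfp868 (13.3 and 7.65), Zfp964 (12.1 and 7.65), Zfp869 (8.03 and 5.36), Zfp963 (11.2 and 10.2) and Zfp866 (11.8 and 6.38) all had one. By chromosome, 13 of 16 members on chromosome 8 had a gene-end peak, against 4 of 17 on chromosome 4, 6 of 22 on chromosome 17 and 1 of 11 on chromosome 13. Over all protein-coding genes of those 4 chromosomes the shares were 59.3%, 57.5%, 49.9% and 53.3%.

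**Figure D3:**
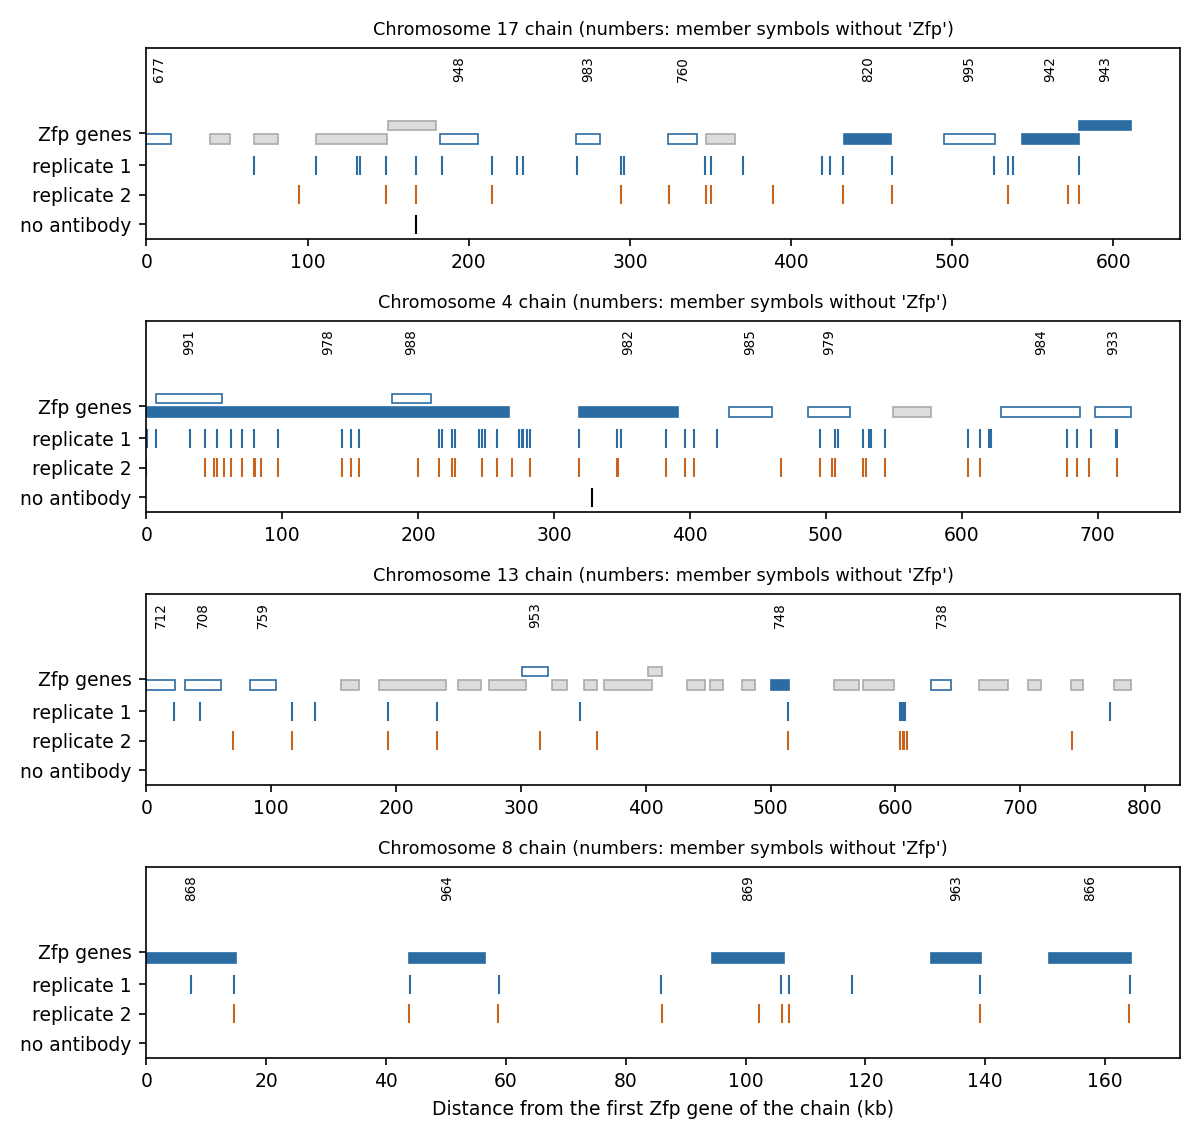
Zfp genes and peak summits of 4 chains by distance from the first Zfp gene of the chain (x axis, kb), with members outlined in blue (filled where a reproducible peak lay within 1 kb of an end), other Zfp genes in grey, and ticks for peaks of MEIS2 replicate 1, replicate 2 and the no-antibody library. All 5 members of the chromosome 8 chain are filled, against 3 of 8 on chromosome 17, 2 of 8 on chromosome 4 and 1 of 6 on chromosome 13.

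The start windows of members held the core MEIS motif more often than those of other genes, while peaks were about as frequent with it as without it. RefSeq windows of 300 bases on GRCm38.p6, from 250 before to 50 after an annotated start, were matched to 148 members and 17491 protein-coding genes in all. These are reference sequences, not those of the CD1 embryos. The letters TGACAG, searched on both strands, were in a window of 55 members (37.2%, 29.8 to 45.2), of 40 of 181 other Zfp genes (22.1%) and of 21.2% of all genes. Members with it had a peak within 1 kb of a start in 30 of 55 cases (54.5%) and members without it in 48 of 93 (51.6%). Over all genes with a window the shares were 48.3% with it and 56% without it, and 54.3% in all. The classes went opposite ways, with 51.4% against 43.5% in clustered members and 60% against 67.7% in isolated ones. Clustered and isolated members held TGACAG at 36.1% and 39.2%. The longer letters TGATTGAC, which begin the site that PBX and MEIS proteins bind together, were chosen after values were seen and were in 8 members (5.41%) and in 0.92% of all genes. A longer stretch that contains TGACAG, GTGACAGG, was also chosen after the sequences were seen. It was in 20 of 148 members (13.5%), 7 of 181 other Zfp genes (3.87%) and 2.24% of all genes.

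Of the 20 members with that stretch, 9 had a start peak (45%), against 69 of the 128 members without it (53.9%). Among all genes with the stretch the share was 56.5%. The members with the stretch could be sorted into sets by chromosome. All 7 on chromosomes 4 and 17 lacked a start peak in both replicates, and all 7 on chromosomes 7, 8 and 9 had a reproducible one. The chromosomes were grouped this way after the peaks were seen, so the contrast between these sets follows from the grouping. Of the other 6, Zfp873 and Zfp853 had one and Zfp781, Zfp938, Zfp708 and Zfp663 did not. The sequences are shown 5′ to 3′ on the strand that reads GTGACAGG, with TGACAG in capitals, so that the surrounding letters can be compared. The 6 genes on other chromosomes, with or without a peak, are not in the averages of shared letters below. Among the 7 on chromosomes 4 and 17, pairs of genes shared on average 73% of the letters flanking the stretch. Among the 4 on chromosome 4 they shared 89.6%:
Zfp980 (chr4:145670656-145670687, plus strand): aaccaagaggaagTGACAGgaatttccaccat
Zfp987 (chr4:146097261-146097292, plus strand): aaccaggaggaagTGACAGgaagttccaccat
Zfp988 (chr4:147305590-147305621, plus strand): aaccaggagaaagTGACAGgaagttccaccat
Zfp985 (chr4:147553241-147553272, plus strand): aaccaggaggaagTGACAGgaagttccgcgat
Zfp947 (chr17:22165964-22165995, minus strand): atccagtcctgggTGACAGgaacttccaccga
Zfp994 (chr17:22225690-22225721, minus strand): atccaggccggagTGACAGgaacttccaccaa
Zfp945 (chr17:22867130-22867161, minus strand): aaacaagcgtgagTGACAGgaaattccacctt

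The 7 with a peak on chromosomes 7, 8 and 9 shared 33.1%, and those on chromosomes 7 and 9 are shown:
Zfp939 (chr7:39449361-39449392, minus strand): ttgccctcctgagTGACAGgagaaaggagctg
Zfp619 (chr7:39517646-39517677, minus strand): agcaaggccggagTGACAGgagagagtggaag
Zfp715 (chr7:43313520-43313550, plus strand): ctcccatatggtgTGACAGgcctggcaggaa
Zfp809 (chr9:22225662-22225693, plus strand): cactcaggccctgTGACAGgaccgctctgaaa

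In the first set the windows with the stretch held 3 to 11 CG dinucleotides, and in the 7 with a peak 6 to 21. In the richest window of each gene, the counts were 3 to 11 in the first set. In the 7 with a peak they ran from 8 (Zfp869) to 29 (Zfp868). CG content of the richest window moved with the peaks over all genes. With at most 5 CG dinucleotides there, 7.11% of protein-coding genes had a start peak, against 92.8% of those with 21 or more.

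Genes with several start windows were placed by the one with most CG dinucleotides. By CG content, nearly all members with the richest windows had a start peak. With 21 or more CG dinucleotides, 21 of 22 clustered and 19 of 19 isolated members had one. With 16 to 20, 6 of 14 clustered members did (42.9%, 21.4 to 67.4), against 4 of 5 isolated members (37.6 to 96.4), 65% of the other Zfp genes and 76.4% of all genes. With 11 to 15, the counts were 5 of 14 clustered (16.3 to 61.2) and 3 of 3 isolated members (43.9 to 100), against 48.5% of the other Zfp genes and 60.5% of all genes. The intervals of the classes overlapped in both of these ranges. At 6 to 10, clustered members (10 of 32, 31.2%), isolated members (3 of 12, 25%) and all genes (31.8%) were close. With at most 5, 3 of 15 clustered and 4 of 12 isolated members had one, against 7.11% of all genes. Of these 7 members, 6 lie on chromosome 2 (Zfp931, Zfp966, Zfp967, Zfp968, Zfp970 and Zfp971), and 49.3 to 100% of the 25-base stretches of their windows recur in the window of another gene. The clustered shares were higher in replicate 1 alone, at 71.4% with 16 to 20, 57.1% with 11 to 15, 50% with 6 to 10 and 33.3% with at most 5, against 88.6%, 76.7%, 46.1% and 10.7% of all genes. In replicate 2 alone they were 42.9%, 42.9%, 31.2% and 26.7%, against 78.4%, 63.8%, 35.9% and 9.51%. The median count was 11 in clustered and 13 in isolated members and 15 over all genes. Whether CG content accounts for the difference between the classes was not tested.

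**Figure D4:**
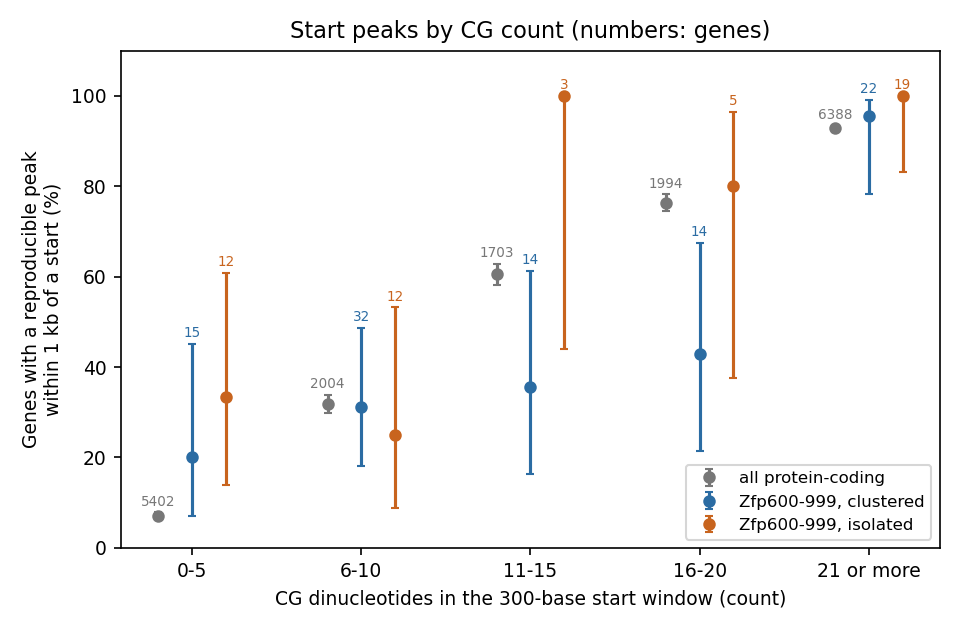
Share of genes with a reproducible peak within 1 kb of an annotated start (y axis, percent) by the number of CG dinucleotides in the 300-base start window (x axis), for all protein-coding genes and for clustered and isolated members, with 95% Wilson intervals and the number of genes above each. Clustered members lie below all genes at 11 to 15 and at 16 to 20, where 5 of 14 and 6 of 14 had a peak.

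The windows of 3 members show this range, with CG dinucleotides in capitals, on the gene's own strand. Zfp982 and Zfp641 have the strongest gene-end peak with its summit inside a window in the clustered and isolated classes outside chromosomes 8 and 18, with the summit at bases 222 and 262 of the window. Zfp677, of the chromosome 17 chain, had no peak in any library. They hold 16, 26 and 10 CG dinucleotides:
Zfp982 (chr4:147442864-147443163, plus strand): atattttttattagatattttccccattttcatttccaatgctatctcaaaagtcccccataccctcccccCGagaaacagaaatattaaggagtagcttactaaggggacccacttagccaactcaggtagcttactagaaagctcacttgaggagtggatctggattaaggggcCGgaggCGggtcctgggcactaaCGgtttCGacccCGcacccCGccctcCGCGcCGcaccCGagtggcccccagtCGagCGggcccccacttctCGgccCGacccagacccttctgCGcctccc
Zfp641 (chr15:98296112-98296411, minus strand): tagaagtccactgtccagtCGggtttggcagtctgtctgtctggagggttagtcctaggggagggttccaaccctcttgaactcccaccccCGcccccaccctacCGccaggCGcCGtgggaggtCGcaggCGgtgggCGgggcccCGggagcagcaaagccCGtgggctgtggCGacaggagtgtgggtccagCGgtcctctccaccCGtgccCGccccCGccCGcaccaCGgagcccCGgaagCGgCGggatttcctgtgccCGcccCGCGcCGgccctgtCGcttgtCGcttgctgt
Zfp677 (chr17:21383498-21383797, plus strand): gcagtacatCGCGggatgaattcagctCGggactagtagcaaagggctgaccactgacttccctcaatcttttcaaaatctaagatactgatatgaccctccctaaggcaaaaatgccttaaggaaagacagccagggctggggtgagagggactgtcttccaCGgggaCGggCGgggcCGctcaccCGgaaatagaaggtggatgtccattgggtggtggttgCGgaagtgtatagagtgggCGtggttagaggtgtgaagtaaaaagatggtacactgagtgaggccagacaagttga

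Some members share stretches of their start window with other genes, and peaks at the nearly identical ones are uncertain as to which gene the reads came from. In 19 of 148 members (12.8%), at least 50% of the window's 25-base stretches recurred in the window of another gene, against 6.12% of protein-coding genes. Zfp966 and Zfp967 shared all of them, and their peaks were nearly equal, with folds of 11.8 and 8.84 at Zfp966 and 11.4 and 8.84 at Zfp967 and pileups of 22 and 16 against 21 and 16. Zfp968, of the same chromosome 2 family, had 11.3 and 8.91 with pileups of 21 and 16. Zfp942 and Zfp943, whose 5′ ends adjoin, resembled Zfp944 and Zfp758, at 81.9% and 89.1%. Start peaks were found at 8 of the 19 members with such windows (42.1%) and at 70 of the other 129 (54.3%), against 18.4% and 56.7% of protein-coding genes with and without such windows. Among members without them, clustered ones had a start peak in 40 of 85 cases (47.1%) and isolated ones in 30 of 44 (68.2%). The placing of reads with several matches is not given in the sources used, and its part in these peaks was not tested.

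Inside the genes, more than 1 kb from both ends, the classes were closer. A reproducible internal peak was found in 23 of 63 isolated members (36.5%, 25.7 to 48.9) and 32 of 108 clustered members (29.6%, 21.8 to 38.8), against 34.6% of protein-coding genes. The interval of the difference of 6.88 points included zero (-7.30 to 21.5). Per 10 kb of gene interior, members held 0.241 such peaks, other Zfp genes 0.23 and all protein-coding genes 0.158. Clustered members held more per length than isolated ones, 0.271 against 0.208, the reverse order of the shares. In replicate 1 alone these were 0.384 and 0.312 and in replicate 2 alone 0.38 and 0.354, against 0.291 and 0.279 over all protein-coding genes. The most internal peaks were in Zfp978 (14) and Zfp993 (13), whose annotated spans on chromosome 4 are 267146 and 478623 bp and run over other annotated genes. Without these 2, clustered members held 0.235 per 10 kb. Of their 27 internal peaks, several lay within 1 kb of an end of another annotated gene, such as the Zfp993 peak at chr4:146579848-146580735 (16 and 14.8), at an end of Gm13233. This held for 16 of 72 internal peaks of clustered members and 4 of 50 of isolated ones, where 2 peaks that lie in 2 overlapping members are counted in each. Most of the 16 were in Zfp978 and Zfp993, so the gap between the classes rests largely on these 2 genes.

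The next highest numbers of internal peaks were in Zfp710, Zfp827, Zfp704 and the clustered Zfp764, which is 27074 bp long and had 5. Zfp710 had 7, none with a fold above 8.54, and Zfp827, whose protein recruits the NuRD complex to telomeres, had 6. Zfp704 had 5, of which the strongest was at chr3:9540384-9540765 (14.1 and 15, 69444 bp from the nearer end) and the widest at chr3:9450791-9452260 (7.54 and 8.54, 1470 bp). Zfp827 lacked a gene-end peak, but its first internal peak (chr8:79029063-79030454, 6.85 and 6.15), with its summit 1736 bp from an end, lay within 1 kb of an annotated start. In all, 11 members without a gene-end peak had a peak at another annotated start, Zfp984, Zfp777 and Zfp800 among them. The matching count over all protein-coding genes was not made. Any start peak was found at 52.7% of members with a start window, against 54.3% of all genes with one.

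No-antibody peaks were uncommon at members and over all protein-coding genes. They lay in the gene or within 1 kb in 6 of 171 members (3.51%, 1.62 to 7.44), an interval that reaches the 7.43% of protein-coding genes. By class they were at 4 of 63 isolated members (6.35%) and at 2 of 108 clustered ones (1.85%). The interval of this difference also included zero (4.50 points, -1.54 to 13.5). The strongest was inside Zfp638 (8.38, chr6:83874504-83875115), within 1 kb of an end of the annotated gene Gm5138, followed by Zfp654 (6.25) and Zfp648 (6.06). At Zfp706 it lay 869 bp from one end (5.05), while the reproducible MEIS2 peak of this gene lay over the other end (8.51 and 8.90). Zfp993 had 2 (3.76 and 4.45) and Zfp982 had 1 (3.73). For clustered members none of the 108 had a no-antibody peak at a gene end, which allows a share of up to 2.78% when the limit is set at 3 genes of the total (the Wilson upper limit is 3.43%).

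The silencing partners of KRAB zinc finger proteins were taken as a list of 14 genes, chosen with earlier results of these data known. A reproducible gene-end peak was found in 12 of them (85.7%, 60.1 to 96.0), against 52.4% of protein-coding genes. The CG content of their start windows was not compared. Trim28, the corepressor itself, had one with a lower-of-replicates fold of 7.41, and Setdb1, the methyltransferase it recruits, had 9.81. The heterochromatin proteins Cbx1, Cbx3 and Cbx5 had 9.94, 5.76 and 4.46. Dnmt1, the maintenance DNA methyltransferase, and its partner Uhrf1 had none at an end in either replicate, with 3 and 1 internal peaks. Whether these internal peaks lie at another annotated start was not examined.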

How the data were processed

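Peak lists of 3 CUT&Tag libraries, 2 with the MEIS2 antibody and 1 without a primary antibody, were grouped by their labels. MACS 2.2.7.1 called each library's peaks on its own, per the file headers, with no control, a q-value cutoff of 0.05 and 1 tag kept per position. Among the tools in the submitters' processing notes are Bowtie2 2.3.4, Picard, Trimmomatic and MACS2 2.1.4, a different version from the headers', with mm10 as the build. The deposited pileup is a signal of stacked tags at the summit, and the deposited fold enrichment is a ratio to the locally expected pileup. A −log10 q-value for each peak was also deposited, as was a −log10 p-value. Because reads at repeated positions were dropped and no control was used, a peak is a local excess of tags.

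Gene positions, without exons or UTRs, came from RefSeq GRCm38.p6, the assembly mm10 names, and strand and start windows from its promoter table, which matched 148 of 171 members. A peak was placed by its summit; overlap meant at least 1 bp. Counting was tested on simulated peaks. Python 3.11.15 and scipy 1.17.1 gave Wilson and Newcombe intervals. No test was made: genes are not replicates, and the control is 1 library. Named genes were a fixed set of 13, the 5 strongest gene-end peaks per class, the 5 members with most internal peaks, those with no-antibody peaks, the 3 chains with most members, and up to 4 per class without any peak; Zfp651, Zfp715, Zfp764, Zfp936, genes named for shared sequences and other starts, and the chromosome 8 chain were added after values were seen. The members and lists were chosen with earlier results of these data known. Alternatives changed the replicates, overlap, q threshold, control removal, distances and neighbour class.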

Additional observations from a re-analysis of the deposited data

How the results depend on the processing

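The isolated class had the higher gene-end share under all 13 alternatives, and the difference of 18.7 points ranged from 8.60 to 30.0. It was 9.39 points with 50% reciprocal overlap, 11.8 with −log10 q of at least 5, 12.3 with ends of 2.5 kb and 30.0 with clusters drawn at 1 Mb, and leaving out a replicate gave 8.60 to 16.9. The share of all members, 48.5%, was 43.3% with 50% reciprocal overlap, 38.6% with −log10 q of at least 5, 39.2% with ends of 500 bp and 57.3% with 2.5 kb, and 54.4 to 59.6% with 1 replicate. The clustered share was 34.3% with −log10 q of at least 5 and with 500 bp, 52.8% with 2.5 kb, and 48.1 to 56.5% with 1 replicate. The isolated share was 46% with −log10 q of at least 5, 47.6% with 500 bp and 72.7% with 1 Mb. The difference in internal peak share (6.88 points) stayed positive. It was 3.17 with −log10 q of at least 5, 8.47 without removal of no-antibody peaks, 3.31 with peak intervals in place of summits, 12 with 500 bp, 10.7 with 2.5 kb, 3.63, 4.46 and 5.2 with clusters at 50 kb, 200 kb and 1 Mb, 8.61 with other zinc finger symbols as neighbours, and 9.26 to 10.6 with 1 replicate. The difference per 10 kb (-0.0626) was -0.0324 with 50% reciprocal overlap and -0.0265 without Zfp978 and Zfp993. With −log10 q of at least 5, 3 in place of 6 members had a no-antibody peak. The 1 Mb limit and the removal of the 2 genes were added after seeing the data; the causes were not tested. Of 53 named genes, 6 lost their gene-end peak at 500 bp (Zfp652, Zfp710, Zfp711, Zfp787, Zfp820 and Zfp968), 4 with the stricter q (Zfp608, Zfp638, Zfp748 and Zfp809) and 3 with reciprocal overlap (Zfp608, Zfp618 and Zfp711). No paired analysis was possible because the no-antibody group holds 1 library and no result comes from a test. Replicate 1 had a gene-end peak at 102 members (59.6%) and replicate 2 at 93 (54.4%), against 60.5% and 55.4% of all protein-coding genes.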
